A study of Mus musculus with 35 samples.

Results

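The Nlrp4, Nlrp9 and Nlrp14 genes that mouse oocytes transcribe were followed through single zygotes and early 2-cell (2C) embryos, gene by gene. They comprised Nlrp4a, Nlrp4b, Nlrp4c, Nlrp4e, Nlrp4f, Nlrp9a, Nlrp9b, Nlrp9c and Nlrp14, which are 9 of the 24480 genes in the count table, and all 9 had counts in every sample. The genes were chosen by name, with their levels in these samples already known, so their levels and their differences between stages are a description. Counts of genes past a threshold between stages are given beside the share over all genes, and nothing is read from them. All embryos came from C57BL/6NRj mice, from superovulated females after natural mating. They were injected either with nuclease-free water or with Kdm5b-yfp mRNA, the message for KDM5B (a demethylase of histone H3K4) tagged with yellow fluorescent protein, and no group received mRNA of another kind. The 10 water zygotes and 10 Kdm5b zygotes were single embryos, injected at about early S phase and collected 17 h after ovulation. The 9 water 2C samples and 6 Kdm5b 2C samples were collected 5.5 to 8 h after division, from zygotes that had been frozen and thawed and that were injected once they had divided. Injected embryos with no or very weak YFP had been left out by the study. Of the water 2C samples, 6 were single intact embryos, 1 was a pool of 2 blastomeres of different embryos and 2 were pools of 3. Of the Kdm5b 2C samples, 5 were single intact embryos and 1 was such a pool of 3. Zygote and 2C libraries were made on separate days, so stage, freezing and library day cannot be told apart.

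NLRP proteins carry an N-terminal pyrin domain, a nucleotide-binding NACHT domain and a row of leucine-rich repeats. Some members of the family, such as NLRP3, are immune sensors that assemble inflammasomes, whereas many others are transcribed mainly in the female germ line and are stored as maternal mRNA and protein. The Nlrp4 and Nlrp9 branches were duplicated several times in rodents, and their copies sit among each other on chromosome 7. Maternal NLRP14 is known to be required for development beyond the first cleavages and has been reported to bind UHRF1, and NLRP9B is known as a sensor of viral RNA in the gut. Maternal mRNAs as a class are cleared in steps between meiotic maturation and the 2C stage, while embryonic genome activation (EGA) begins.

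In the RefSeq annotation of GRCm38 on which the fragments were counted, 8 of the genes lay on chromosome 7 and Nlrp4f lay on chromosome 13. Nlrp4c was annotated on the plus strand at chr7:6045161-6105149, Nlrp4b on the plus strand at chr7:10687793-10730158, Nlrp9b on the plus strand at chr7:20008023-20062940 and Nlrp4e on the plus strand at chr7:23301192-23362277. Nlrp9c (minus strand, chr7:26364887-26394243), Nlrp4a (plus strand, chr7:26435113-26475458) and Nlrp9a (plus strand, chr7:26535023-26574148) were neighbours, with 40.9 kb between the first pair and 59.6 kb between the second. Nlrp14 was annotated on the plus strand at chr7:107166990-107198103 and Nlrp4f on the minus strand at chr13:65177111-65205716. The counted exons, 9 to 11 per gene, added up to between 3020 bases for Nlrp9c and 3614 bases for Nlrp4c.

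Promoter sequence from RefSeq (GRCm38.p6, 250 bases before to 50 after each start) was at hand for 8 of the genes, 10 promoters in all. The upstream windows of Nlrp4a, Nlrp4b and Nlrp4c are shown because the 3 genes differed widely in level and in their stage difference. Each window ends with the longest run that the 3 promoters had in common, which is in capitals and lay within 54 bases of the annotated start. The windows are chr7:26435516-26435575, chr7:10687691-10687750 and chr7:6045095-6045154, all on the plus strand, and the Nlrp4a window lies in an intron of the longer RefSeq transcript of that gene.
Nlrp4a: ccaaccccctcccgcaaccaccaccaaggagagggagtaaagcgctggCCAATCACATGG
Nlrp4b: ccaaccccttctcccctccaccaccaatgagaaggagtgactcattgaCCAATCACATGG
Nlrp4c: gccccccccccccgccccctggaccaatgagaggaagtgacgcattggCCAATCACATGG

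The run CCAATCACATGG, searched on both strands, occurred in 7 of the 32851 promoters of the table, which belonged to 6 genes. It joins a CCAAT box to a CANNTG motif (E box). CCAAT was found in 37.4% of all promoters of the same length and in those of 6 of the 8 genes. CANNTG, which overlaps the 2 motifs named next, was found in 72.3% of all promoters and in those of all 8. Of the E boxes, CAGCTG was found in all 5 Nlrp4 genes and in 16.3% of all promoters, and CAGGTG in all 3 Nlrp9 genes and in 20.2% of all promoters. Both E boxes were picked after the promoters had been read. TAATTG, a form bound by the oocyte homeodomain protein NOBOX, was found for Nlrp9a and Nlrp9b and in 8.00% of all promoters. These percentages are per promoter, whereas the 8 genes, with 10 promoters, are counted as genes. Several promoters are also alike. Those shown for Nlrp4a, Nlrp4b and Nlrp4c shared 78.3% to 80.4%, and those of Nlrp9a and Nlrp9c 96.4%. Nlrp4e and Nlrp4f shared 63.05%, and Nlrp9a and Nlrp9b 64.7%. The genes are therefore not independent, and no test against all promoters was made.

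Nlrp9a and Nlrp9c are shown because their promoters were the most alike, with 96.4% identical bases over 253 aligned, and because both genes had nearly the same level. The run in capitals, 106 bases long, was identical in both and was in no other promoter of the table. The windows are chr7:26534893-26535010 on the plus strand and chr7:26403757-26403874 on the minus strand. The Nlrp9c window lies upstream of the gene as counted (chr7:26364887-26394243) and outside it. It therefore belongs to an annotated start other than that of the counted gene.
Nlrp9a: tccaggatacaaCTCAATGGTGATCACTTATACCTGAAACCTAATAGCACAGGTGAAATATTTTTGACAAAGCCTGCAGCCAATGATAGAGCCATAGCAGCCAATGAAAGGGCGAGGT
Nlrp9c: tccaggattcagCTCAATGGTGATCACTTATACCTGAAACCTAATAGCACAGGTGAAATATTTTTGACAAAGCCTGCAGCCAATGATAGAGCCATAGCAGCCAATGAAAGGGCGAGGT

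The coding sequences, taken from GENCODE M21 (GRCm38), fell into the branches that the names give. Identity was 77.8% to 93.9% within Nlrp4 and 82.8% to 87.7% within Nlrp9. Between Nlrp4 and Nlrp9 it was 58.15% to 62.7%, and Nlrp14 shared 59.8% to 63.1% with the others. The most similar pair was Nlrp4c and Nlrp4e, at 93.9%. Fragments that map to several places were not counted, so the likeness bears on the counts. Of all windows of 91 bases, the longest read left after trimming, 13.8% of the Nlrp4e transcript also occurred in a transcript of another gene (mostly Gm8486), against 1.56% for Nlrp4c, 1.90% for Nlrp9b and 0 for Nlrp4a, Nlrp4b and Nlrp14. With windows of 50 bases the share was 36.9% for Nlrp4e and 11.9% for Nlrp4c. It was 7.08% for Nlrp4f, 6.54% for Nlrp9a, 6.22% for Nlrp9b, 4.99% for Nlrp9c, 3.11% for Nlrp4a and 0 for Nlrp4b and Nlrp14. The level of Nlrp4e is therefore the least certain by this measure, and reads of unannotated copies were not examined.

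**Figure D1:**
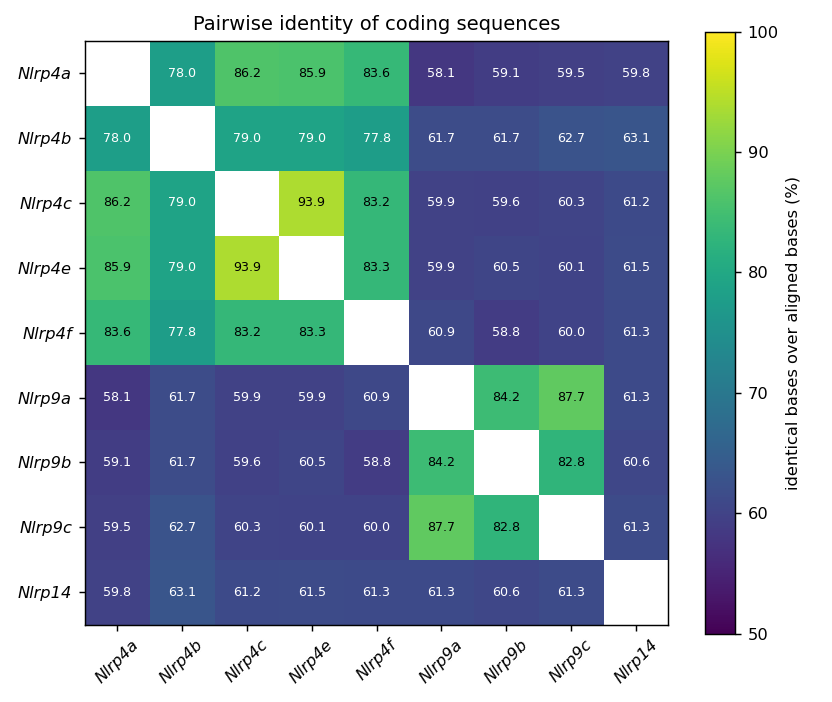
Pairwise identity of the coding sequences of the 9 genes, as the percent of identical bases over aligned bases (colour and printed value). The Nlrp4 genes (77.8% to 93.9%) and the Nlrp9 genes (82.8% to 87.7%) form blocks, and Nlrp14 reaches at most 63.1% with any of them.

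Sequencing depth was 8705584 to 17797581 gene counts a sample. Kdm5b took 2.30% to 10.4% of them in Kdm5b zygotes and 8.27% to 15.8% in Kdm5b 2C samples, against at most 0.0189% in water samples, and its row was left out before scaling. Of the oocyte and zygote markers, 9 of 9 were counted, with a summed level between 6554 and 11819.6 TPM (transcript abundance, counts per exon length, with every sample brought to one total) over all samples. The summed level of 6 2-cell markers was at most 31.6 TPM in zygotes and at least 104 TPM in 2C samples. Of 10 cumulus and granulosa markers, the summed level was 12.3 to 51.0 TPM, of which Cyp19a1 made up most, and 3 to 5 had a median count of 0 depending on the group. Of 5 leukocyte markers, the summed level had a median of 1.07 TPM in water zygotes, 1.06 in Kdm5b zygotes, 0.845 in water 2C samples (0 to 11.6) and 4.80 in Kdm5b 2C samples (2.16 to 16.2), with Lyz2 the highest by mean. Their part in the results at 2C was not tested. By library index strip (8 consecutive index numbers, inferred from the labels), zygotes of both injections were spread alike over strips 8, 9 and 10. Strip 11 held 3 water and 5 Kdm5b 2C samples and strip 12 held 6 water and 1 Kdm5b 2C sample, so results at 2C are also given within strip 11.

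In water zygotes the 9 genes together reached a median of 4777 TPM and 0.548% ± 0.0329 of the gene counts (SD, n = 10). Nlrp4f, a Nlrp4 gene of the maternal store, was the most abundant, with a TPM from 1709 to 2146 and a median of 1874. By median TPM it was number 36 of 15332 genes above 0. It alone made up 39.6% ± 2.703 of the summed TPM of the 9 genes (SD, n = 10). Nlrp14 followed with a TPM from 567 to 1065 and a median of 774, and Nlrp4a with a TPM from 593 to 796 and a median of 729. These ranges overlapped, and Nlrp14 was above Nlrp4a in 6 of 10 zygotes. Nlrp9b came next, with a TPM from 400.2 to 494 and a median of 449, below every value of Nlrp4a and above every value of the genes that follow. Nlrp9c (median TPM 243), Nlrp4b (241), Nlrp9a (235) and Nlrp4e (223) could not be ordered, since each range overlapped that of its neighbour. Nlrp4c was lowest, with a TPM from 14.7 to 25.7 and a median of 20.6, below every value of every other gene.

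**Figure D2:**
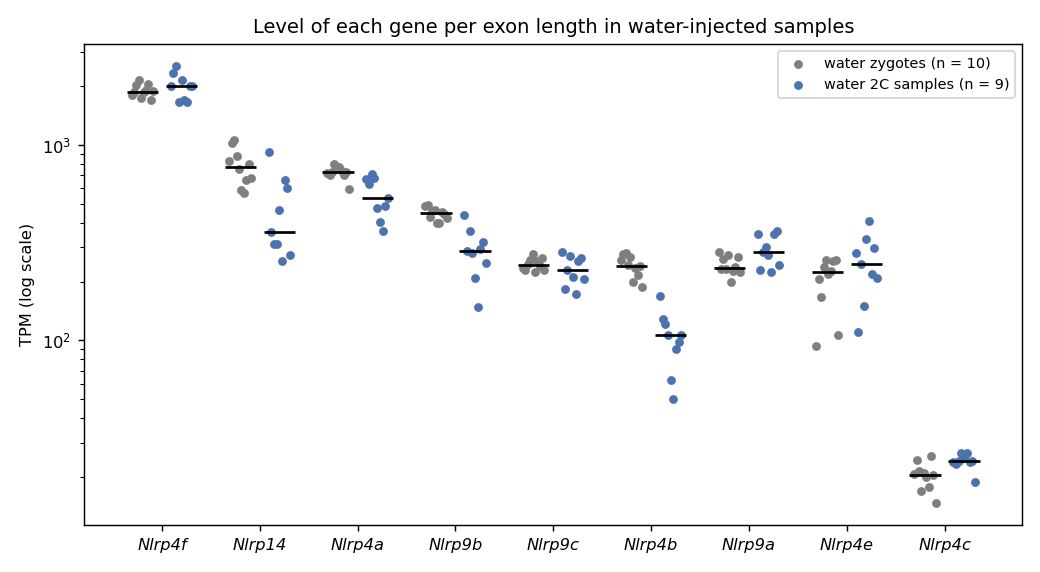
TPM (log axis) of each gene in 10 water zygotes (grey) and 9 water 2C samples (blue). Points are samples and lines are medians, and genes are ordered by their median in zygotes, from 1874 TPM for Nlrp4f to 20.6 TPM for Nlrp4c.

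The comparison of water 2C samples with water zygotes describes how each maternal transcript stood after the first division. Values within a gene are CPM (counts scaled to library size with edgeR's TMM factors), relative to the other transcripts of the sample, since no spike-in was used. They do not show the amount of RNA per embryo or per cell. The genes did not move together. The estimates of Nlrp4b, Nlrp14, Nlrp9b and Nlrp4a were lower at 2C, and those of Nlrp4c, Nlrp4e, Nlrp4f and Nlrp9a were higher.

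Nlrp4b had a CPM from 204 to 305 (median 255) in water zygotes and from 53.3 to 182 (median 120) in water 2C samples. All 9 2C samples were below the lowest zygote. The log2 fold change was -1.12 (SE 0.156). Nlrp4b was the 1 member of 9 past both thresholds of the study (adjusted p < 0.05, and a log2 fold change beyond 1 in size) in the lower direction, beside 13.0% of the 11968 genes tested. It was also the 1 member whose groups did not overlap, lower at 2C, beside 10.9% of all genes; none did so in the higher direction, beside 6.64%. With 2C samples of strip 11 only, which were the highest (136 to 182 CPM), the log2 fold change of Nlrp4b was -0.75. In that fit no member was past both thresholds, beside 1539 of 13256 genes in the lower direction. What part the strip had in the difference was not tested.

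Nlrp14 had a CPM from 598 to 1159 (median 816) in water zygotes and from 273 to 997 (median 394) in water 2C samples, and 6 of 9 2C samples were below all zygotes. Its log2 fold change was -0.68 (SE 0.197). Nlrp9b had a CPM from 431 to 534 (median 489) in zygotes and from 162 to 482 (median 323) in 2C samples. All but 1 of the 9 2C samples were below the lowest zygote, and the log2 fold change was -0.55 (SE 0.129). Nlrp4a went from a median of 844 CPM to 687 CPM with overlapping groups (log2 fold change -0.31, SE 0.105). With 2C samples of strip 11 only, the log2 fold change was -0.07 for Nlrp4a, whose 3 samples there (752 to 864 CPM) lay within the range of the zygotes, -0.27 for Nlrp9b and -0.53 for Nlrp14.

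The other genes were level or higher. Nlrp4f had a CPM from 1952 to 2449 (median 2153) in water zygotes and from 1952 to 3058 (median 2457) in water 2C samples, so that the ranges shared their lower end and 5 of 9 2C samples were above every zygote (log2 fold change 0.16, SE 0.0790). Its share of the summed TPM of the 9 genes was 47.9% ± 5.397 in water 2C samples (SD, n = 9). Nlrp9a (0.35, SE 0.100), Nlrp4e (0.39, SE 0.202) and Nlrp4c (0.33, SE 0.119) had higher estimates on the log2 scale, each with overlapping groups. With strip 11 only, the values were 0.31 for Nlrp4f, 0.27 for Nlrp9a, 0.10 for Nlrp4e and 0.26 for Nlrp4c. Nlrp9c differed least, with a median of 244 CPM in zygotes and 237 CPM at 2C (log2 fold change -0.00142, SE 0.0918). Nlrp9a and Nlrp9c thus had estimates of 0.35 and -0.00142, and a difference between them was not tested. The promoters compared for this pair were near-identical, but that of Nlrp9c lies outside the counted gene. Over all 9 genes the median log2 fold change was -0.00142, beside 0.02 over all genes tested.

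**Figure D3:**
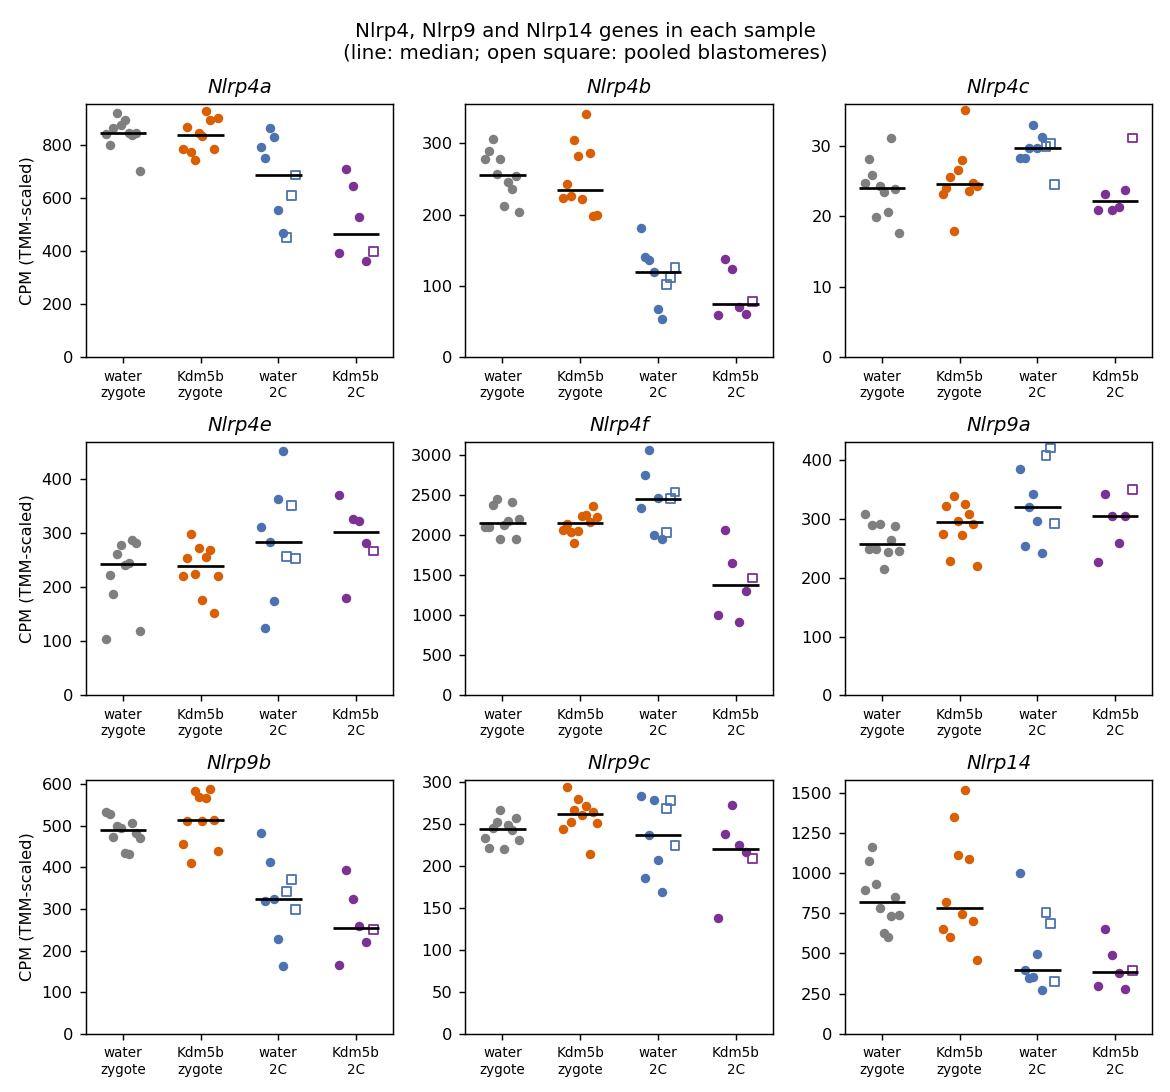
CPM (linear axes from 0, TMM-scaled) of each gene in 10 water zygotes, 10 Kdm5b zygotes, 9 water 2C samples and 6 Kdm5b 2C samples. Filled points are single embryos, open squares are pooled blastomeres and lines are medians; Nlrp4b is lower in every 2C sample than in any zygote, and Nlrp4f has its lowest median in Kdm5b 2C samples (1382 against 2457 CPM in water 2C samples).

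In Kdm5b samples Nlrp4b, Nlrp14 and Nlrp9b again had the lowest estimates. The log2 fold change of 2C samples against zygotes was -1.50 for Nlrp4b (SE 0.175), -1.11 for Nlrp14 (SE 0.224) and -0.93 for Nlrp9b (SE 0.135). Nlrp4a had -0.71 (SE 0.119) and Nlrp4f -0.60 (SE 0.121). Past both thresholds in the lower direction were 2 members, Nlrp4b and Nlrp14, beside 16.0% of the 12390 genes tested. The groups did not overlap for Nlrp4a, Nlrp4b and Nlrp9b, all lower, beside 16.4% of all genes, and for no member in the higher direction, beside 12.2%. Nlrp9c (-0.25, SE 0.104) and Nlrp4c (-0.09, SE 0.139) had lower estimates, and Nlrp9a (0.06, SE 0.106) and Nlrp4e (0.32, SE 0.136) higher ones. This comparison shares its Kdm5b 2C samples with the comparison of Kdm5b and water 2C samples, and its zygotes with that of Kdm5b and water zygotes.

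Kdm5b zygotes were compared with water zygotes to ask whether injection of Kdm5b-yfp mRNA changed these transcripts before EGA. H3K4me3 was not measured in the sequenced embryos. None of the 9 genes was past both thresholds in edgeR's quasi-likelihood test, beside 0.00838% of 11933 genes. In edgeR 1 member of 9, Nlrp9c, had an unadjusted p under 0.05, beside 1234 of the 11933 genes, and nothing is read from it. DESeq2's Wald test put 0 members past the thresholds and 0 at an unadjusted p under 0.05. The log2 fold changes lay between -0.02 for Nlrp4f and 0.13 for Nlrp9a. The widest 95% intervals were those of Nlrp14, from -0.20 to 0.45, and of Nlrp4e, from -0.21 to 0.38, so that a change beyond the threshold of 1 lies outside the interval of every gene. For Nlrp4f, the CPM was 1952 to 2449 (median 2153) in water zygotes and 1902 to 2367 (median 2153) in Kdm5b zygotes, and the interval of the log2 fold change was -0.11 to 0.08. Nlrp9c had a median of 244 CPM in water and 262 CPM in Kdm5b zygotes (log2 fold change 0.11, SE 0.0543, adjusted p = 0.471). Groups overlapped for all 9 genes, beside 0.0419% of all genes whose groups did not.

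At 2C, Nlrp4f had the lowest estimate of the 9 genes between Kdm5b and water samples, and its difference from the other genes was not tested. Its CPM was 1952, 2005, 2036, 2336, 2457, 2467, 2539, 2751 and 3058 in the 9 water samples. In the 6 Kdm5b samples it was 921, 1009, 1298, 1466, 1648 and 2062. All 6 Kdm5b samples were below the water median, and 5 of the 6 were below every water sample. The log2 fold change was -0.77 (SE 0.147, 95% interval -1.08 to -0.47), with an unadjusted p of 3.03e-05 and an adjusted p of 0.0619 in edgeR's quasi-likelihood test, so that Nlrp4f did not pass the threshold. DESeq2's Wald test gave an adjusted p of 0.000532 with a log2 fold change of -0.78. Within strip 11 the groups did not overlap, with 921 to 2062 CPM in 5 Kdm5b samples and 2336 to 3058 CPM in 3 water samples. The 1 Kdm5b sample of strip 12 was at 1298 CPM, below the 6 water samples of that strip (1952 to 2539 CPM). With the strip as a covariate, the log2 fold change was -0.87 (adjusted p = 0.00723). In single intact embryos alone it was -0.80, at an adjusted p of 0.329. Across the alternatives other than leaving out 1 sample, the adjusted p of Nlrp4f ranged from 4.98e-05 to 0.329 and was under 0.05 in 6 of 9, while its log2 fold change stayed between -0.94 and -0.77.

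The other 8 genes gave smaller estimates, and none had an adjusted p under 0.05. Some depended on the index strip. With the strip as a covariate the log2 fold change was -0.67 for Nlrp4b, -0.61 for Nlrp4a (adjusted p = 0.0552), -0.50 for Nlrp14 and -0.47 for Nlrp9b, each over 1.5 times its value without the strip. It was 0.18 for Nlrp4e. Among all 9, 8 had a lower estimate, beside 6159 of the 12244 genes tested. The median log2 fold change of the 9 was -0.30, beside -0.00281 over all genes tested. Past both thresholds were 0 members by edgeR and 0 by DESeq2, beside 0.00817% of 12244 genes in edgeR. In edgeR 2 members, Nlrp4f and Nlrp4a, had an unadjusted p under 0.05, beside 1152 of the 12244 genes. In DESeq2 3 members did, with Nlrp4c as the third, and genes under that unadjusted p were not counted there. Groups overlapped for all 9, beside 0.237% of genes whose groups did not. Nlrp4a had a CPM from 453 to 864 (median 687) in water and from 363 to 711 (median 464) in Kdm5b 2C samples, of which 3 of 6 were below every water sample (log2 fold change -0.39, SE 0.166, adjusted p = 0.460). Nlrp4c had a CPM from 24.5 to 33.0 in water and from 20.9 to 31.1 in Kdm5b samples, of which 5 of 6 were below every water sample (log2 fold change -0.31, SE 0.161, adjusted p = 0.569). The log2 fold change was -0.37 for Nlrp4b (SE 0.232), -0.30 for Nlrp14 (SE 0.251), -0.27 for Nlrp9b (SE 0.193), -0.14 for Nlrp9a (SE 0.133) and -0.12 for Nlrp9c (SE 0.141). Nlrp4e was the exception in direction, at 0.04 (SE 0.215). The 95% intervals of Nlrp4a and Nlrp4f did not include 0, and those of Nlrp4b (-0.86 to 0.11), Nlrp14 (-0.82 to 0.22) and Nlrp9b (-0.67 to 0.13) reached well below 0.

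**Figure D4:**
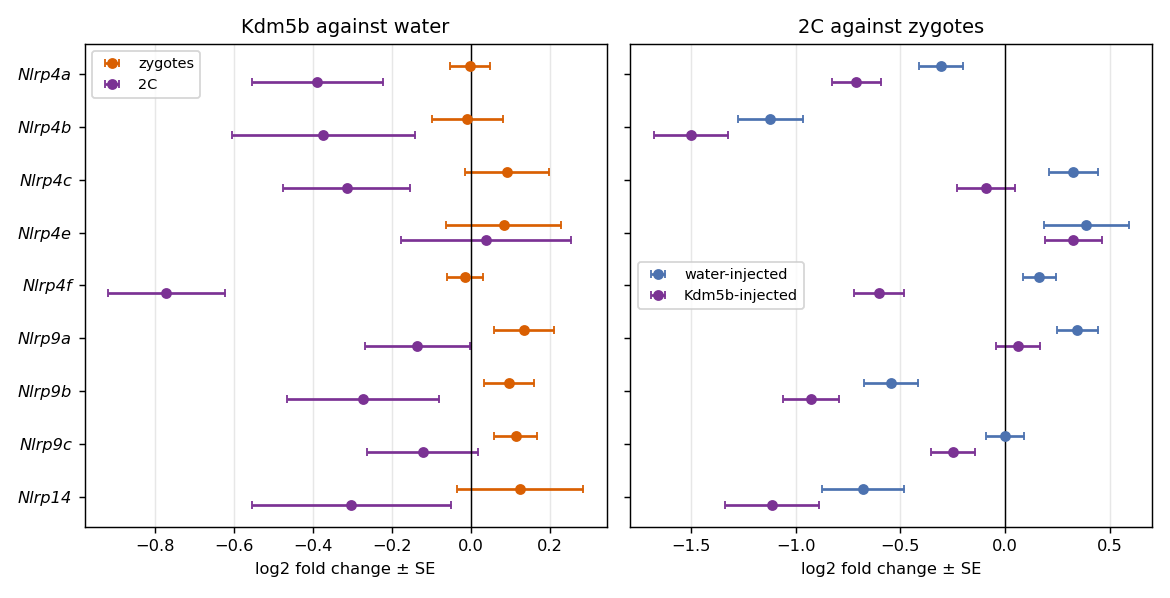
Log2 fold change (point) with its SE (bar) of each gene, Kdm5b against water in zygotes (orange) and 2C samples (purple) at left, and 2C against zygotes in water (blue) and Kdm5b samples (purple) at right. Zygote estimates at left lie between -0.02 and 0.13, and Nlrp4f at 2C lies lowest, at -0.77.

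Whether the Kdm5b effect differed between stages was tested as the interaction of injection and stage over all 35 samples. Nlrp4f was the 1 member with an adjusted p under 0.05 (log2 difference of the fold changes -0.75, SE 0.147, adjusted p = 0.0169 in edgeR's quasi-likelihood test), beside 0.109% of 13778 genes, 15 in all. The difference was -0.80 with single intact 2C embryos only (adjusted p = 0.0236). It was -0.94 with 2C samples of strip 11 only, at an adjusted p of 0.000507. When any 1 of the 35 samples was dropped, the adjusted p stayed between 0.000211 and 0.0465 and the difference between -0.89 and -0.66. Since stage is confounded with freezing and library day, the interaction holds those too. The fit used a single measure of spread per gene for all 4 groups. The SD of Nlrp4f CPM was 177 in water and 134 in Kdm5b zygotes, but 367 in water and 423 in Kdm5b 2C samples. What this did to the p-value was not tested. The estimates of the other 8 genes were all negative, from -0.05 for Nlrp4e to -0.42 for Nlrp14, at adjusted p values of 0.452 or more. Of all 13778 genes, 7060 had a negative estimate. The members share their samples, so their signs are not independent. With strip 11 only, Nlrp4a (-0.60, adjusted p = 0.0102) and Nlrp9b (-0.66, adjusted p = 0.0269) also had an adjusted p under 0.05. In that fit 953 of 14573 genes, or 6.54%, had an adjusted p under 0.05.

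The amount of Kdm5b RNA differed among injected samples, and Nlrp4f was set beside it after its values had been seen. The 2C sample with the lowest Kdm5b share, 8.27% of gene counts, had the highest Nlrp4f level (2062 CPM), and the sample with the highest share, 15.8%, had the lowest (921 CPM). Over the 6 Kdm5b 2C samples Pearson's r was -0.68 (exact permutation p = 0.167) and Spearman's rho -0.71 (exact permutation p = 0.136). Without the 2 samples farthest from the median share, r over the 4 left was -0.86 for Nlrp4f. It was -0.99 for Nlrp9a, -0.90 for Nlrp9c and -0.84 for Nlrp9b there, and 0.75 for Nlrp4e. For Nlrp4f over 10 Kdm5b zygotes r was -0.24 (permutation p = 0.492) and rho -0.01 (permutation p = 0.998), and r was 0.42 without the 2 farthest samples. Within the 5 Kdm5b 2C samples of strip 11, r was -0.77 for Nlrp4f, -0.85 for Nlrp4b, -0.78 for Nlrp4a and -0.77 for Nlrp14, so that the value of Nlrp4f was not particular to it. Of 18 relations, 9 genes in each of 2 groups, none passed at an adjusted p of 0.05, and the lowest adjusted p for r was 0.692.

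**Figure D5:**
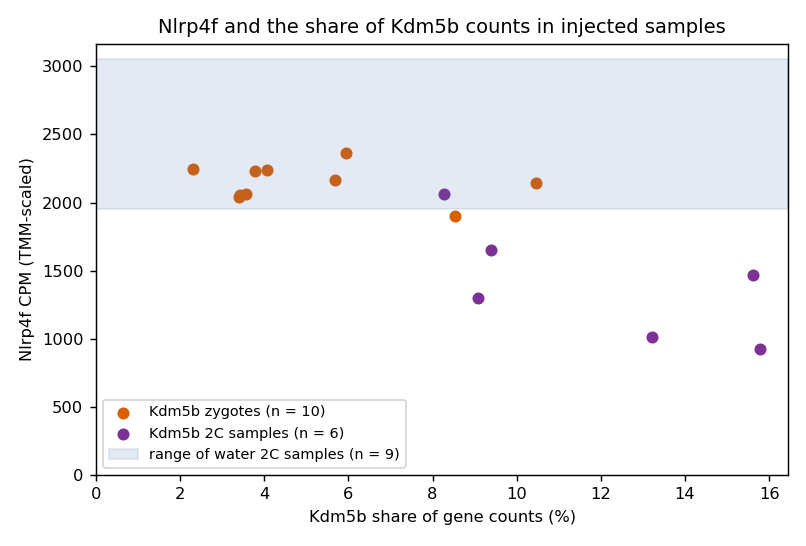
Nlrp4f CPM (TMM-scaled) against the percent of gene counts on Kdm5b in 10 Kdm5b zygotes (orange) and 6 Kdm5b 2C samples (purple), with the range of 9 water 2C samples as a band (1952 to 3058 CPM). Of the 6 Kdm5b 2C samples, 5 lie below the band.

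The genes also differed in their spread among the samples of a group. In water zygotes the coefficient of variation of TPM was 7.22% for Nlrp4f, 7.01% for Nlrp9c, 7.30% for Nlrp9b and 7.67% for Nlrp4a. It was 21.6% for Nlrp14 and 29.9% for Nlrp4e, of which 2 zygotes had 104 and 120 CPM and the other 8 had 188 to 288 CPM. In water 2C samples the coefficient was higher for most, up to 48.7% for Nlrp14, and lower for Nlrp4c, at 9.53%. These samples include pools of blastomeres and lie in strips 11 and 12, so their spread is not that of single embryos alone. In Kdm5b zygotes Nlrp14 ranged from 457 to 1515 CPM. With the mean of each group taken off, the log2 CPM of 28 pairs of genes without Nlrp4e had a Pearson's r from -0.00166 to 0.88 over 35 samples, the highest for Nlrp4b with Nlrp9b. For Nlrp4e r was -0.31 to 0.11 with the other 8, and for Nlrp4c it was -0.00166 to 0.19. All values of a sample share its library and its depth, and no test was made.

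Among 13769 other genes, those whose log2 CPM was most like the mean of the 9 genes over all 35 samples were Ints4 (Pearson's r 0.90), Rnf25 (0.90), Cyfip1 (0.89), Zfp750 (0.89) and Psmd2 (0.88). With the mean of each group taken off, they were Ints4 (0.86), Fbxw15 (0.85), Sf3b3 (0.81), Gm15698 (0.81) and Rps15a (0.80).

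The other Nlrp genes were described in the same fits. Of 11 on the list 10 were in the table, and in each group 4 had a median count of 0. Nlrp5 (MATER), of the subcortical maternal complex (a protein complex of the egg cortex), had the highest level, with a median of 734 TPM in water zygotes and 237 TPM in water 2C samples. Its log2 fold change of 2C against zygotes was -1.60 (SE 0.170), against 0.16 for Nlrp4f. Nlrp4g, a further Nlrp4 copy, had a median of 316 TPM in water zygotes and 225 TPM in water 2C samples (log2 fold change -0.39, SE 0.0909). In Kdm5b 2C samples Nlrp4g had a median of 181 TPM, and its log2 fold change against water was -0.39 (SE 0.142, adjusted p = 0.369). Nlrp2, also of the maternal complex, had a median of 47.2 TPM in water zygotes and 23.2 TPM in water 2C samples. Nlrp6 was near 0, with a median of 0.0875 TPM in water zygotes and 1.37 TPM in water 2C samples. Its log2 fold change of 2C against zygotes was 3.18 in water samples (SE 0.849) and 3.62 in Kdm5b samples (SE 0.517), past both thresholds in each.

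Of the 7 genes of the subcortical maternal complex, 5 were past both thresholds, lower, at 2C in water samples, beside 13.0% of all genes tested. The median log2 fold change over all 7 was -1.62. It was -0.00142, with 1 of 9 past both thresholds, for the Nlrp4, Nlrp9 and Nlrp14 genes. A difference between the lists was not tested. Ooep had a median of 1090 TPM in water zygotes and 270 TPM in water 2C samples, and Padi6 908 and 240 TPM. Zbed3 had a higher median at 2C, 21984.5 TPM against 14430 TPM in zygotes (log2 fold change 0.61). Between Kdm5b and water 2C samples the list had a median log2 fold change of 0.17 with 0 of 7 past both thresholds and 0 of 7 at an unadjusted p under 0.05 in edgeR.

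Of the oocyte transcription factors, 6 of 7 were tested in the water samples. Their median log2 fold change was -0.89 at 2C, with 3 lower and 1 higher past both thresholds, beside 1555 lower and 1101 higher of the 11968 genes tested. Nobox, which activates oocyte genes, had a median of 445 TPM in water zygotes, 184 in water 2C samples and 107 in Kdm5b 2C samples. Between Kdm5b and water 2C samples its log2 fold change was -0.73 (SE 0.158, adjusted p = 0.108), and the interaction of injection and stage was -0.73 (SE 0.155, adjusted p = 0.0328). Lhx8 had 151, 95.3 and 86.3 TPM, and Taf4b and Gtf2a1l had mean levels of 30.5 and 21.3 TPM over all samples.

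Reported partners of NLRP14 were present except for Slc8b1, a mitochondrial calcium exchanger, whose median count was at most 16.5 in any group. Uhrf1, which maintains DNA methylation, had a median of 895 TPM in water zygotes and 488 TPM in water 2C samples. The importins Kpna2 (1191 and 459 TPM) and Kpna7 (475 and 359 TPM) were also lower at 2C by median. Partners of immune NLRP proteins were mostly near 0. Pycard, the adaptor of the inflammasome, and Il1b had 0 counts in all 35 samples. For a sample taken singly, a count of 0 allows up to 3 counts by counting error alone, and 0 in all 35 samples allows fewer per sample. Casp1 had a median of at most 4 counts in any group. Nek7 (29.3 TPM in water zygotes) and Nlrc4 (25.3 TPM) were the 2 of 9 that were tested, and neither had an adjusted p under 0.05 between Kdm5b and water.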

How the data were processed

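RNA from single or pooled embryos was made into SMART-Seq Stranded libraries. Per the labels and the study's methods, the authors trimmed reads with fastp 0.21.0, aligned them to GRCm38 with STAR 2.7.3a and deposited raw counts per RefSeq gene from featureCounts 1.5.1 (paired, stranded), without fragments that map to several places. A deposited table of repeat families was not used, and 0 per-sample columns lacked a sample. Injection groups came from the labels. The Kdm5b row was removed before scaling, as in the study. Genes were kept by edgeR's filterByExpr (minimum count 10), scaled by TMM and tested across all genes in R 4.3.3 with edgeR 4.0.16 (quasi-likelihood, Benjamini-Hochberg), with the study's thresholds of 0.05 for the adjusted p and 1 for the absolute log2 fold change. The interaction used the adjusted p alone. DESeq2 1.42.0 was an alternative. Each contrast was fitted on its own groups, and the interaction on all samples. TPM used the summed exon length. Log2 CPM for correlations used a prior count of 2. The scripts were tested on simulated data.

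The genes and the gene lists were chosen with earlier results of these data known. All 9 genes are named, and of each other list the 4 with the highest mean TPM could be named. Besides these genes, the 5 genes most like the mean of the 9 were named over all samples and again with group means taken off, and Pycard and Il1b were named after their values were seen. Alternatives were DESeq2 size factors, DESeq2's test, a replicate block, no filter on low counts, the Kdm5b row kept, all samples in a single fit, intact embryos only, the index strip as a covariate and leaving out each sample. Fits within strip 11 and the interaction with each sample left out were added after seeing the data. Depth was 8705584 to 17797581 counts per sample, and intervals are at the 95% level. The labels do not tie embryos to females, so p-values measure the spread between these samples. Promoters came from RefSeq (GRCm38.p6) and coding sequences from GENCODE M21. Figures were drawn with matplotlib 3.10.9, and permutation tests were run with scipy 1.17.1.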

Additional observations from a re-analysis of the deposited data

Results flagged for a closer look

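Nlrp4c had 1 sample apart from its group. The Kdm5b 2C sample pooled from 3 blastomeres had 31.1 CPM, with the nearest of the other 5 at 23.7 CPM. It was the 1 case among 36 sets of a gene and a group, and chance alone gives about 1 in 20.

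The Kdm5b effect on Nlrp4f differed between zygotes and 2C samples, with an interaction of -0.75 on the log2 scale (SE 0.147, adjusted p = 0.0169 in edgeR). Nlrp4f was lower than the water median in 6 of 6 Kdm5b 2C samples and in 5 of 10 Kdm5b zygotes. Stage, freezing and library day cannot be told apart here. The fit used a single measure of spread for all groups, although 2C samples varied more than zygotes.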

How the results depend on the processing

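Replicate numbers did not pair the samples. The deviations of same-numbered samples from their group means had correlations between -0.185 and 0.0688 for Kdm5b and water 2C samples, -0.0696 and 0.102 for Kdm5b and water zygotes, -0.0734 and 0.0661 for water samples across stages and -0.0404 and 0.0313 for Kdm5b samples across stages. With the replicate block, 0 members were past both thresholds between Kdm5b and water in zygotes, 0 at 2C, 1 between stages in water samples and 2 between stages in Kdm5b samples. For Nlrp4f at 2C the block gave -0.82 (adjusted p = 0.0225).

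With 2C samples of strip 11 only, 0 members in place of 1 were past both thresholds, lower, between stages in water samples. In the interaction 3 in place of 1 had an adjusted p under 0.05, beside 6.54% of 14573 genes in place of 0.109%. There the estimate of Nlrp4e turned to 0.18. Fewer samples entered these fits, and the cause was not tested. Leaving out each sample in turn gave 0 to 0 members between Kdm5b and water in zygotes, 0 to 0 at 2C, 1 to 1 between stages in water samples and 1 to 1 in the interaction. Estimates near 0 changed sign among those fits. Between Kdm5b and water zygotes they ranged from -0.0317 to 0.0136 for Nlrp4a, -0.0697 to 0.0248 for Nlrp4b, -0.00257 to 0.14 for Nlrp4e and -0.0331 to 0.00341 for Nlrp4f. For Nlrp4e they ranged from -0.0607 to 0.15 at 2C and from -0.14 to 0.0635 in the interaction. Nlrp4f at 2C ranged from -0.91 to -0.68 with an adjusted p between 0.00679 and 0.241, under 0.05 in 2 of 15 (0.0453 without water 2C replicate 6 and 0.00679 without Kdm5b 2C replicate 2). Across all genes, Kdm5b against water at 2C gave 3 genes at an adjusted p under 0.05 in edgeR, 101 in DESeq2, 19 with the block, 253 with the strip as a covariate, 528 with all samples in a single fit and 0 with intact embryos only. Counts are relative, single embryos vary, and groups of 6 and 9 limit what could be detected at 2C.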
